A study of Mus musculus with 10 samples.

Results

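The 10 genes described here belong to the NRF2 antioxidant programme: the transcription factor gene Nfe2l2 and 9 genes of heme breakdown, quinone reduction, glutathione and thioredoxin chemistry. They were chosen by symbol, with earlier results of these data known. Each has 1 row among the 14248 symbols of the series, so 10 of 10 were found. All cultures were NIH3T3, a mouse fibroblast line of embryonic origin, and 10 of them were profiled by RNA sequencing. Of these, 4 clones stably overexpressed FOXP2, a forkhead transcription factor, 4 clones stably overexpressed FOXP2-CPED1, which the series title calls an arrangement of FOXP2, and the control was 1 culture of parental cells and 1 of cells stably carrying the vector. With 1 library per culture, errors within a construct reflect differences among its clones. Neither control is stated to be clonal, so the derivation of a clone and the construct cannot be told apart, and the species of the introduced sequence is not given in the sources used here.

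NRF2, the protein of Nfe2l2, is a transcription factor that is held at low levels because its partner KEAP1 marks it for degradation. Electrophiles and oxidants release it, and it then binds antioxidant response elements with small Maf proteins and raises genes of detoxification. Much of this control acts on the protein, so the transcript of Nfe2l2 need not follow NRF2 activity. In fibroblasts the programme is known for keeping glutathione, NADPH and heme in balance.

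Promoter sequences are shown because they hold the letters through which such a programme is commonly read. RefSeq promoter windows on build GRCm38.p6, of 300 bases each, were found for 7 of the 10 genes (Nfe2l2, Nqo1, Gclm, Gstm1, Txnrd1, Srxn1 and Slc7a11; 10 windows, since Gstm1 and Txnrd1 have several starts). Each was searched on both strands for 3 motifs. The core of the antioxidant response element, TGACNNNGC, was in 4 windows of 4 genes, and in 12.4% of all 32851 promoter windows. The AP-1 letters TGANTCA were in 1 window (7.81% of all) and the C/EBP-ATF letters TGATGNAA, which ATF4 is known to bind, in 1 window (3.97% of all). An antioxidant core can contain AP-1 letters, but no 2 matches of these motifs overlapped in these windows. Other spellings of the core were not searched. Stretches upstream of the start are printed 5′ to 3′ on the strand of the gene, with the matches in capitals. They are chr2:75704870-75704913 (minus strand) for Nfe2l2, chr3:122245398-122245456 (plus) for Gclm, chr10:82859089-82859147 (plus) for Txnrd1, chr2:152105397-152105510 (plus) for Srxn1 and chr3:50443628-50443704 (minus) for Slc7a11.
Nfe2l2 antioxidant core: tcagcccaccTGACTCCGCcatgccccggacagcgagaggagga
Gclm antioxidant core, reverse strand: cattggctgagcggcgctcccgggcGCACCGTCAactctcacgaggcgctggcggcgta
Txnrd1 antioxidant core, reverse strand: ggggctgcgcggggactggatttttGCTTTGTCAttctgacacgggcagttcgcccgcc
Srxn1 AP-1 letters: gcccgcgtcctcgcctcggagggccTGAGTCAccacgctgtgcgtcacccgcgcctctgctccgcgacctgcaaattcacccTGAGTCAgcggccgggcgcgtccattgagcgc
Slc7a11 C/EBP-ATF letters, both strands: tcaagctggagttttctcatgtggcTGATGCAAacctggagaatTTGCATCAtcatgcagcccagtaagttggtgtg
The first base of the core lay 240 bases before the start in Nfe2l2, 134 in Gclm and 92 in Txnrd1. Srxn1 had AP-1 letters from 102 and 45 bases before the start, and its match to TGACNNNGC began at base 29 after it. The AP-1 letters from 45 bases are followed by GC, so they read as TGACNNNGC with G in place of C. The C/EBP-ATF letters of Slc7a11 began 66 and 47 bases before the start and faced each other. A match is a description of the letters, not evidence of binding in these cells.

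Levels are RPKM, reads scaled by transcript length and library size by the authors. The summed RPKM of a library ran from 794682 to 944602, and relative depth, read from the steps of values under 0.3 RPKM, from 0.913 to 1.32 of the parental library. Absolute depth is unknown. FOXP2 clones 2 and 4 and FOXP2-CPED1 clone 3 had the 2 rows of the mitochondrial genome listed at 0, where the other 7 libraries had 33213 to 41130 RPKM in sum. Of 8 fibroblast markers 7 were measured, with summed levels of 5775 to 7685 RPKM in FOXP2 clones, 6169 to 8062 in FOXP2-CPED1 clones and 8266 to 8424 in the control. Of the blood and macrophage markers, 2 of 5 (Lyz2 and Cd14) were measured, summing to 24.5 to 40.4, 26.7 to 46.7 and 35.3 to 37.3 RPKM in the same order. Cdh1, the 1 epithelial marker measured of 4, was at or under 2.37 RPKM, and the 1 endothelial marker measured of 3 at or under 0.536 RPKM, without meeting the filter. Fibroblast markers summed lower in every clone than in either control, but they did not all fall. Of the 7, 0 were called (0.436% of all rows with FOXP2, 0.35% with FOXP2-CPED1). The sum weighs genes of high level such as Vim most. Log2 fold changes were negative for 5 of 7 with FOXP2 and 4 of 7 with FOXP2-CPED1 (47.7% and 49.7% of all rows). Col1a1 was above both controls in 6 of 8 clones, and Col1a2 and Pdgfra in 5 of 8. Vim averaged 1763 ± 516.1 and 1890 ± 190.6 RPKM with FOXP2 and FOXP2-CPED1 against 2967 ± 244.2 in the control, Thy1 101.7 ± 29.0 and 111.2 ± 16.5 against 152.3 ± 5.09, and Col1a1 1009 ± 129.3 and 1180 ± 67.6 against 975.8 ± 22.2. Their part in the results was not tested. In bulk RNA, fewer cells that express a gene and less of its RNA per cell cannot be told apart.

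Across the 10 genes most levels were lower in the clones, but no gene passed the test. On the log2(RPKM + 1) scale, 9 of 10 had negative fold changes with FOXP2 and 9 of 10 with FOXP2-CPED1, and Slc7a11 was the exception in both. These comparisons share their control libraries. The median log2 fold change of the 10 genes was -0.54 with FOXP2 and -0.39 with FOXP2-CPED1, against 0.02 and 0.00 over all 12842 rows tested, of which 47.7% and 49.7% were negative. Over all 8 clones 9 of 10 were again negative (48.4% of all rows). By limma with Benjamini-Hochberg adjustment at 0.05, 0 of the 10 genes were called in either comparison, where 0.436% of all rows were called with FOXP2 and 0.35% with FOXP2-CPED1. At an unadjusted p under 0.05 there were 6 of the 10 with FOXP2 (8.52% of all rows) and 3 with FOXP2-CPED1 (7.28% of all rows). With all 8 clones against the control, 0 of 10 were called (0.537% of all rows) and 4 were under 0.05 unadjusted (9.1% of all rows). With library quality weights in limma, which let libraries near their group count more, 5 of the 10 were called with FOXP2 (Nfe2l2, Hmox1, Gstm1, Txnrd1 and Srxn1), 3 with FOXP2-CPED1 (Nfe2l2, Hmox1 and Gstm1) and 7 over all clones (these 5, Nqo1 and Gsta4), while the rows called went to 2095, 929 and 1842. Several fold changes shrank with these weights: with FOXP2 they were -0.96 for Gsta4, -0.73 for Gstm1, -0.87 for Nqo1 and -0.31 for Gclc, and with FOXP2-CPED1 0.06 for Slc7a11, while Gclm with FOXP2-CPED1 went to -0.36. A gene that misses the threshold is not shown to be the same in clones and control.

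**Figure D1:**
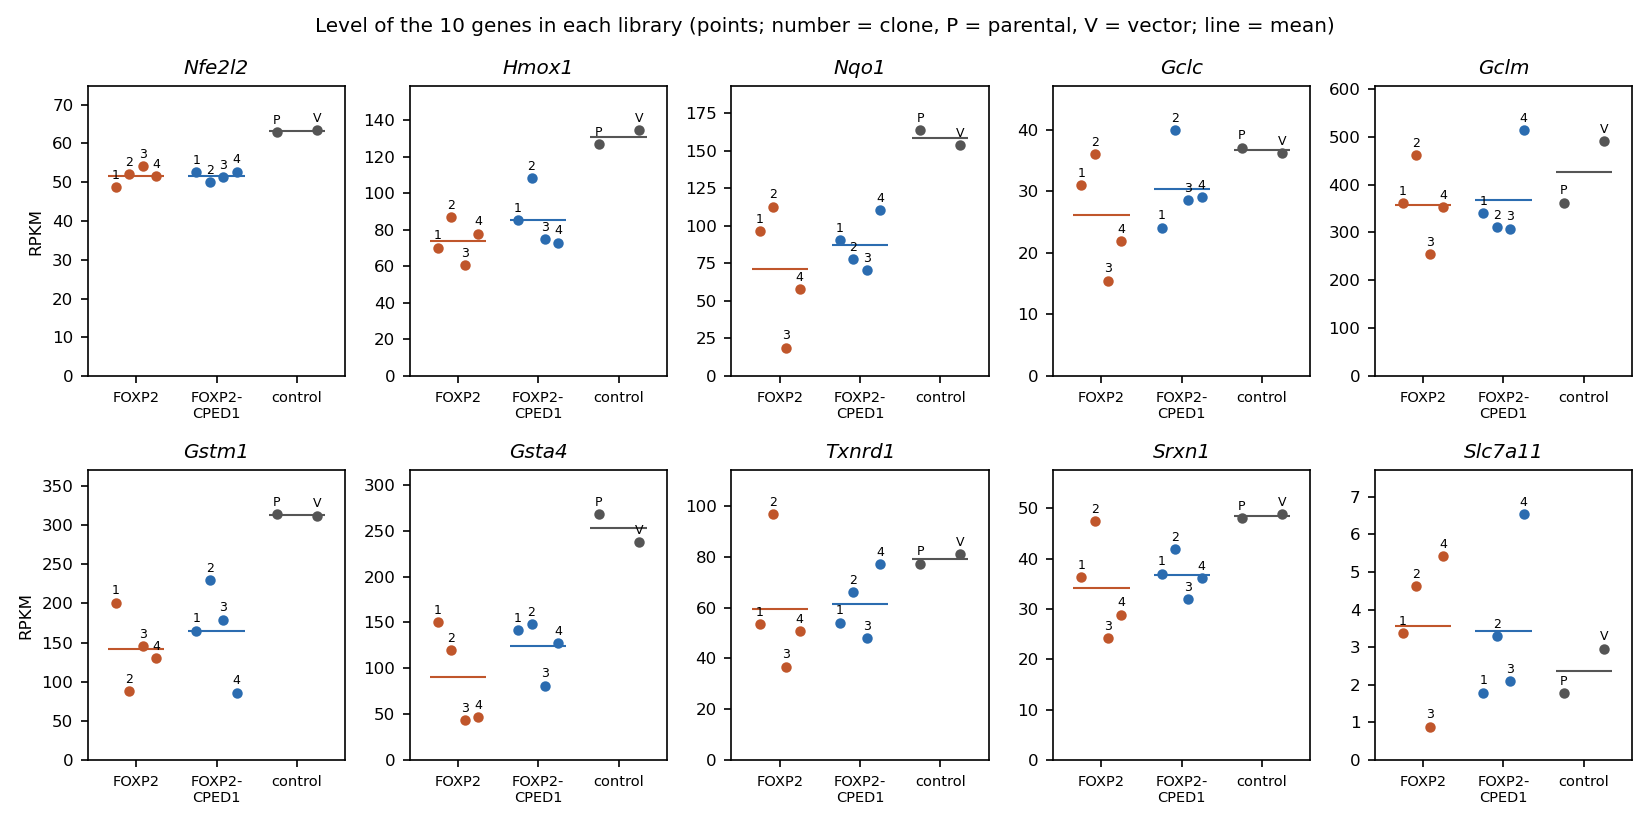
RPKM (vertical axes, from 0, scaled per gene) of the 10 genes in FOXP2 clones, FOXP2-CPED1 clones and the control; points are libraries, numbers are clones, P is parental, V is vector, and lines are means. For Nfe2l2, Hmox1, Nqo1, Gstm1, Gsta4 and Srxn1 all 8 clones lie below both controls, with Srxn1 of FOXP2 clone 2 (47.5) just under the parental value (48.1).

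Every clone lay below both controls for 6 of the 10 genes, Nfe2l2, Hmox1, Nqo1, Gstm1, Gsta4 and Srxn1, as did 6.38% of all rows tested. No gene had every clone above both controls (5.44% of all rows), nor every FOXP2 clone (9.13%) or every FOXP2-CPED1 clone (12.2%). By construct, every FOXP2 clone lay below both controls for 7 genes (the 6 and Gclc; 10.4% of all rows) and every FOXP2-CPED1 clone for 7 (the 6 and Txnrd1; 13.3% of all rows). Leaving out the 3 libraries lacking mitochondrial values, the count over all clones was 7 of 10, Txnrd1 being added, beside 9.75% of all rows. Leaving out any single library gave 6 or 7, beside 6.63 to 10.9% of all rows. The 7 came without FOXP2 clone 2 (Txnrd1 added, 7.75% of all rows) and without FOXP2-CPED1 clone 2 (Gclc added, 7.44%), and the 6 stood beside 10.1% without parental and 10.9% without vector cells.

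Nfe2l2, the gene of NRF2 itself, had the least spread. It stood at 48.7, 52.1, 54.2 and 51.5 RPKM in FOXP2 clones 1 to 4, at 52.7, 50.0, 51.2 and 52.8 in FOXP2-CPED1 clones 1 to 4, and at 62.9 in parental and 63.4 in vector cells. All 8 clones were within a narrow band below the controls, and the constructs overlapped fully. Means were 51.6 ± 2.27 RPKM with FOXP2 and 51.7 ± 1.31 with FOXP2-CPED1 (SD, n = 4 each), against 63.2 ± 0.371 in the control (n = 2). The log2 fold change was -0.29 ± 0.11 (SE) with FOXP2 (adjusted p = 0.477, limma) and -0.28 ± 0.11 with FOXP2-CPED1 (adjusted p = 0.564). The coefficient of variation over the 8 clones was 3.32%, against 17.9 to 54.9% for the other 9 genes.

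Hmox1 encodes heme oxygenase 1, which opens heme to biliverdin, iron and carbon monoxide. Its levels were 70.2, 86.8, 60.5 and 77.9 RPKM in FOXP2 clones 1 to 4, 85.2, 108.2, 74.8 and 73.1 in FOXP2-CPED1 clones 1 to 4, and 126.8 and 134.5 in parental and vector cells. FOXP2-CPED1 clone 2 came nearest to the controls and FOXP2 clone 3 was lowest. The log2 fold change was -0.83 ± 0.19 with FOXP2 (adjusted p = 0.138, limma), the smallest adjusted p of the 10 genes in that comparison, and -0.63 ± 0.19 with FOXP2-CPED1 (adjusted p = 0.381). By unadjusted p it ranked 138 and 277 of the 12842 rows.

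Nqo1 encodes a quinone reductase that spends NAD(P)H to turn quinones into hydroquinones. FOXP2 clones 1 to 4 had 96.6, 112.8, 18.9 and 57.8 RPKM, FOXP2-CPED1 clones 1 to 4 had 90.5, 77.7, 70.5 and 110.5, and parental and vector cells had 163.6 and 153.9. FOXP2 clone 3 stood far below the other clones. The log2 fold change with FOXP2 was -1.41 ± 0.56 (adjusted p = 0.504, limma), and -0.88 without FOXP2 clone 3 (adjusted p = 0.329). With FOXP2-CPED1 it was -0.88 ± 0.56 (adjusted p = 0.823). The SE is the pooled one in both, while the SD among clones was 42.0 RPKM with FOXP2 and 17.5 with FOXP2-CPED1.

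Gstm1 and Gsta4 encode glutathione transferases, which join glutathione to electrophiles. Gstm1, of the mu class, stood at 200.8, 87.9, 145.7 and 130.5 RPKM in FOXP2 clones 1 to 4, at 165.3, 229.7, 179.4 and 86.2 in FOXP2-CPED1 clones 1 to 4, and at 314.0 and 312.0 in parental and vector cells. FOXP2 clone 2 and FOXP2-CPED1 clone 4 were the lowest pair, and no clone reached a control. Gstm1 belongs to a family of close copies, so reads may be shared among them and its level is uncertain. Its log2 fold change was -1.20 ± 0.38 with FOXP2 (adjusted p = 0.348, limma) and -1.002 ± 0.38 with FOXP2-CPED1 (adjusted p = 0.551).

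Gsta4, of the alpha class, acts on the lipid peroxidation product 4-hydroxynonenal. It stood at 150.2, 120.0, 43.8 and 46.4 RPKM in FOXP2 clones 1 to 4, at 141.6, 148.2, 81.1 and 127.3 in FOXP2-CPED1 clones 1 to 4, and at 268.0 and 237.5 in parental and vector cells. FOXP2 clones 3 and 4 were lowest, followed by FOXP2-CPED1 clone 3. The log2 fold change was -1.68 ± 0.48 with FOXP2 (adjusted p = 0.266, limma; -0.96 with library quality weights) and -1.05 ± 0.48 with FOXP2-CPED1 (adjusted p = 0.688).

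Gclc and Gclm encode the catalytic and modifier subunits of glutamate-cysteine ligase, the rate-limiting enzyme of glutathione synthesis. Gclc had 31.0, 36.0, 15.5 and 21.9 RPKM in FOXP2 clones 1 to 4, 24.1, 39.9, 28.6 and 29.0 in FOXP2-CPED1 clones 1 to 4, and 37.1 and 36.2 in parental and vector cells. FOXP2-CPED1 clone 2 exceeded both controls, and FOXP2 clone 2 was level with vector cells. Gclm had 360.7, 461.7, 254.1 and 353.0 RPKM in FOXP2 clones 1 to 4, 340.7, 311.5, 307.8 and 513.4 in FOXP2-CPED1 clones 1 to 4, and 362.0 and 490.4 in parental and vector cells. For Gclm the 2 controls were themselves apart, clones and controls overlapped, and FOXP2-CPED1 clone 4 was above both controls. With FOXP2 the log2 fold changes were -0.54 ± 0.30 for Gclc (adjusted p = 0.704, limma) and -0.27 ± 0.27 for Gclm (adjusted p = 0.846). The value for Gclc was -0.33 without FOXP2 clone 3. That for Gclm was -0.12 without FOXP2 clone 3, -0.49 without parental cells, -0.05 without vector cells and -0.48 leaving out the 3 libraries lacking mitochondrial values. With FOXP2-CPED1 they were -0.29 ± 0.30 (Gclc, adjusted p = 0.894) and -0.23 ± 0.27 (Gclm, adjusted p = 0.906). With FOXP2-CPED1 the value for Gclm was -0.01 without vector cells, -0.45 without parental cells and -0.40 without FOXP2-CPED1 clone 4, -0.14 with quantile scaling, and for Gclc -0.19 without FOXP2-CPED1 clone 1.

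Txnrd1 and Srxn1 act in the thioredoxin branch: the first encodes a selenoenzyme that reduces thioredoxin, the second sulfiredoxin, which repairs over-oxidised peroxiredoxins. Txnrd1 had 53.5, 96.7, 36.8 and 50.8 RPKM in FOXP2 clones 1 to 4, 54.1, 66.2, 48.0 and 77.2 in FOXP2-CPED1 clones 1 to 4, and 77.3 and 81.0 in parental and vector cells. FOXP2 clone 2 was the 1 clone above both controls. Srxn1 had 36.3, 47.5, 24.2 and 28.9 RPKM in FOXP2 clones 1 to 4, 37.0, 41.9, 32.0 and 36.2 in FOXP2-CPED1 clones 1 to 4, and 48.1 and 48.8 in parental and vector cells. FOXP2 clone 2 came nearest to the controls for Srxn1 and FOXP2-CPED1 clone 4 for Txnrd1, and FOXP2 clone 3 was lowest for both genes. With FOXP2 the log2 fold changes were -0.50 ± 0.32 for Txnrd1 (adjusted p = 0.746, limma) and -0.53 ± 0.23 for Srxn1 (adjusted p = 0.559). Without FOXP2 clone 2 Txnrd1 gave -0.76, and without FOXP2 clone 3 it gave -0.30. It was -0.82 leaving out the 3 libraries lacking mitochondrial values. With FOXP2-CPED1 they were -0.39 ± 0.32 (adjusted p = 0.872) and -0.40 ± 0.23 (adjusted p = 0.789).

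**Figure D2:**
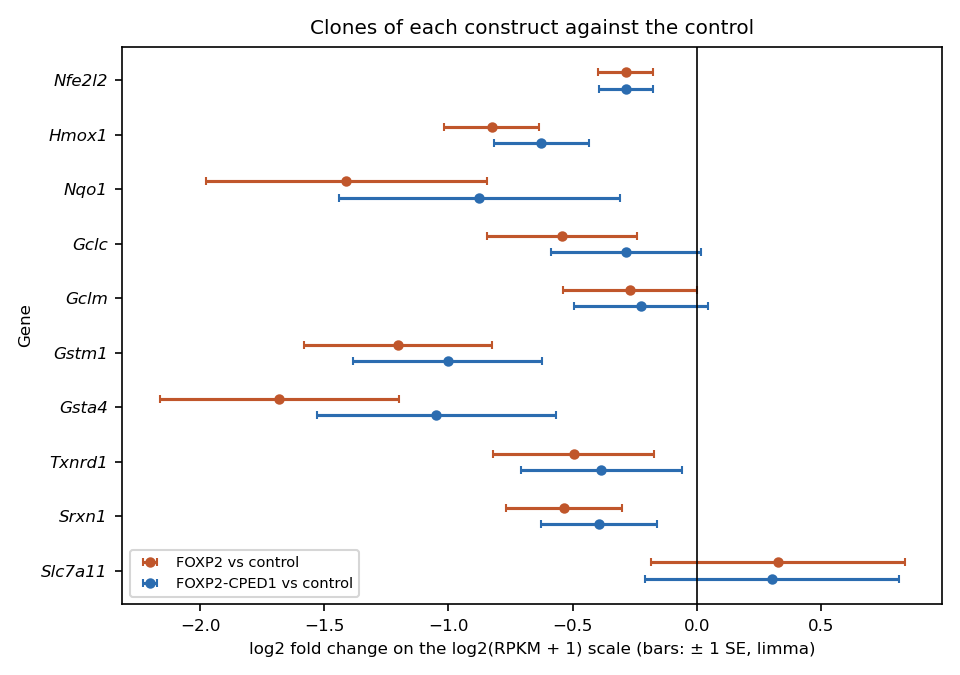
Log2 fold changes (horizontal axis, log2(RPKM + 1) scale, bars ± 1 SE from limma) of the 10 genes for FOXP2 clones and for FOXP2-CPED1 clones against the control. Slc7a11 alone has positive values, 0.32 and 0.30, and Gsta4 has the lowest, -1.68 and -1.05.

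Slc7a11 encodes the cystine importer xCT, which brings in the cysteine for glutathione and is known as a target of both NRF2 and ATF4. It was the lowest of the 10 genes, at 3.38, 4.62, 0.891 and 5.42 RPKM in FOXP2 clones 1 to 4, 1.79, 3.29, 2.10 and 6.54 in FOXP2-CPED1 clones 1 to 4, and 1.78 and 2.96 in parental and vector cells. FOXP2 clone 3 was below both controls, FOXP2-CPED1 clones 1 and 3 lay between them, and the other 5 clones were above. The log2 fold change was 0.32 ± 0.51 with FOXP2 (adjusted p = 0.909, limma) and 0.30 ± 0.51 with FOXP2-CPED1 (adjusted p = 0.9402). Its size was unsteady, and with FOXP2 its sign reversed in 1 setting. With FOXP2, omitting clone 3 gave 0.70, omitting clone 2 gave 0.18 and omitting clone 4 gave 0.12. The reversal, to -0.21, came on leaving out the 3 libraries lacking mitochondrial values. With FOXP2-CPED1 the log2 fold change of Slc7a11 was 0.01 without FOXP2-CPED1 clone 4 and 0.49 without FOXP2-CPED1 clone 1. Against vector cells alone the values were 0.07 (FOXP2) and 0.05 (FOXP2-CPED1), and against parental cells alone 0.58 and 0.56.

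Across libraries Slc7a11 went with several genes of the ATF4 programme of amino acid supply. That list was written as a group, with earlier results of these data known. Over the 10 libraries Pearson's r with Slc7a11, on log2(RPKM + 1), had a median of 0.69 over the 12 listed genes measured and exceeded 0.5 for 7 of them, as it did for 22.9% of 9852 rows. It was 0.94 for Aars (alanyl-tRNA synthetase), 0.93 for Asns (asparagine synthetase), 0.90 for Phgdh (serine synthesis), 0.90 for Mthfd2 (mitochondrial folate enzyme), 0.85 for Psat1 (serine synthesis) and 0.84 for Trib3 (a pseudokinase), genes singled out after their values were seen. Vldlr, the seventh, had 0.55, and the lowest was -0.74 for the row carrying only the symbol Atf4. That row was low, at 0.246 to 2.40 RPKM. A joined row, Mief1/Atf4, whose reads may come from either gene, had 0.91. That joined row stood at 253.8, 316.9, 151.6 and 391.1 RPKM in FOXP2 clones 1 to 4, at 164.5, 198.8, 155.4 and 382.8 in FOXP2-CPED1 clones 1 to 4, and at 221.7 and 219.1 in parental and vector cells. Its 2 highest libraries, FOXP2 clone 4 and FOXP2-CPED1 clone 4, were also the 2 highest for Slc7a11. Within the 10 genes, r with Slc7a11 over the 10 libraries was 0.71 for Gclm, 0.54 for Txnrd1, 0.42 for Nqo1 and 0.37 for Gclc. It was 0.24 for Srxn1, 0.05 for Gsta4, 0.01 for Hmox1, -0.30 for Nfe2l2 and -0.49 for Gstm1. Over the 8 clones alone it was 0.84 for Gclm, 0.73 for Txnrd1, 0.68 for Nqo1 and -0.51 for Gstm1. These correlations are descriptions over 10 libraries that include the same clones. The ATF4 list itself had 0 of 12 genes called in any comparison (0.436% of all rows with FOXP2, 0.35% with FOXP2-CPED1). Medians of the list were 0.25 with FOXP2 and -0.06 with FOXP2-CPED1. Its smallest p values belonged to the stress factor Atf3, which averaged 11.1 ± 11.3 and 5.60 ± 4.40 RPKM with FOXP2 and FOXP2-CPED1 against 16.4 ± 2.31 in the control, to Ddit3, the CHOP gene, with 105.7 ± 94.0 and 52.8 ± 3.37 against 52.4 ± 4.999, and to the amino acid transporter gene Slc7a3, with 2.28 ± 0.970 and 1.43 ± 0.240 against 1.92 ± 0.120.

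The clones differed in how many of the genes were low. FOXP2 clone 3 had all 10 below both controls and was the lowest of the 8 clones for 8 of them, all but Nfe2l2 and Gstm1. Its median difference from the control mean over the 10 genes was -1.09 on the log2(RPKM + 1) scale. FOXP2 clone 4 followed with -0.72 (9 genes below both controls), then FOXP2-CPED1 clone 3 with -0.65 (9), FOXP2-CPED1 clone 1 with -0.56 (9), FOXP2 clone 1 with -0.48 (9), FOXP2-CPED1 clone 4 with -0.37 (8), FOXP2-CPED1 clone 2 with -0.30 (8) and FOXP2 clone 2 with -0.15 (7). Over all rows tested a clone had 37.0 to 43.1% of rows below both controls, and its median difference lay between -0.01 and 0.01. Without FOXP2 clone 3 the median of the 10 genes was -0.36 with FOXP2, against -0.54 with it included. Without FOXP2 clone 2, the clone nearest to the control, it was -0.74.

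**Figure D3:**
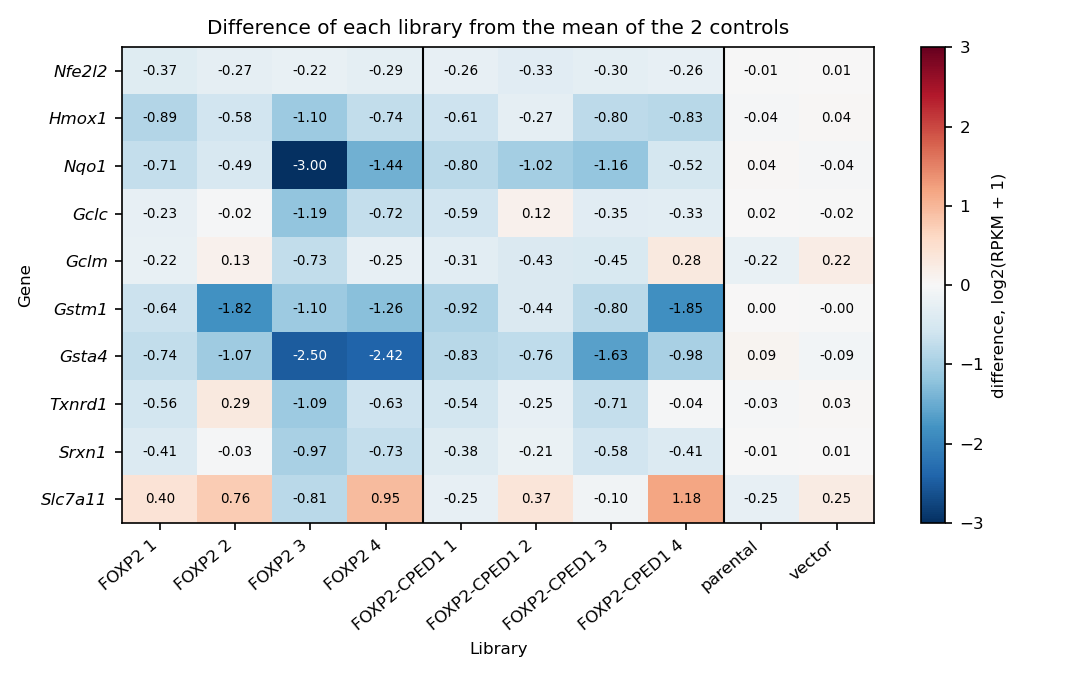
Difference of each library from the mean of the 2 controls on the log2(RPKM + 1) scale, as colour and number, with genes down the page and FOXP2 clones, FOXP2-CPED1 clones and control libraries across it. FOXP2 clone 3 is lowest for 8 genes, down to -3.00 for Nqo1, while Gstm1 is lowest in FOXP2 clone 2 (-1.82) and FOXP2-CPED1 clone 4 (-1.85).

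The genes did not all order the clones alike. Among the 8 clones Pearson's r was 0.90 between Gclc and Srxn1, 0.88 between Txnrd1 and Srxn1 and 0.85 between Gclm and Txnrd1. It was 0.85 between Nqo1 and Srxn1, 0.84 between Gsta4 and Srxn1 and 0.84 between Gclm and Slc7a11. Nqo1 had 0.81 with both Gclc and Gsta4. Spearman's rho, which uses ranks, ran over these pairs from 0.60 (Nqo1 and Gsta4) to 0.86 (Gclm and Slc7a11). Gstm1 ran against Gclm, with r of -0.73 and rho of -0.55. FOXP2 clone 2 and FOXP2-CPED1 clone 4 had the lowest Gstm1 of the clones (87.9 and 86.2 RPKM). They also had the highest Gclm (461.7 and 513.4), Txnrd1 (96.7 and 77.2) and Nqo1 (112.8 and 110.5) of the clones. Nfe2l2 had r between -0.65 and -0.05 with the other 9 genes, over a range of only 48.7 to 54.2 RPKM. These are descriptions over 8 clones that share a parental line.

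**Figure D4:**
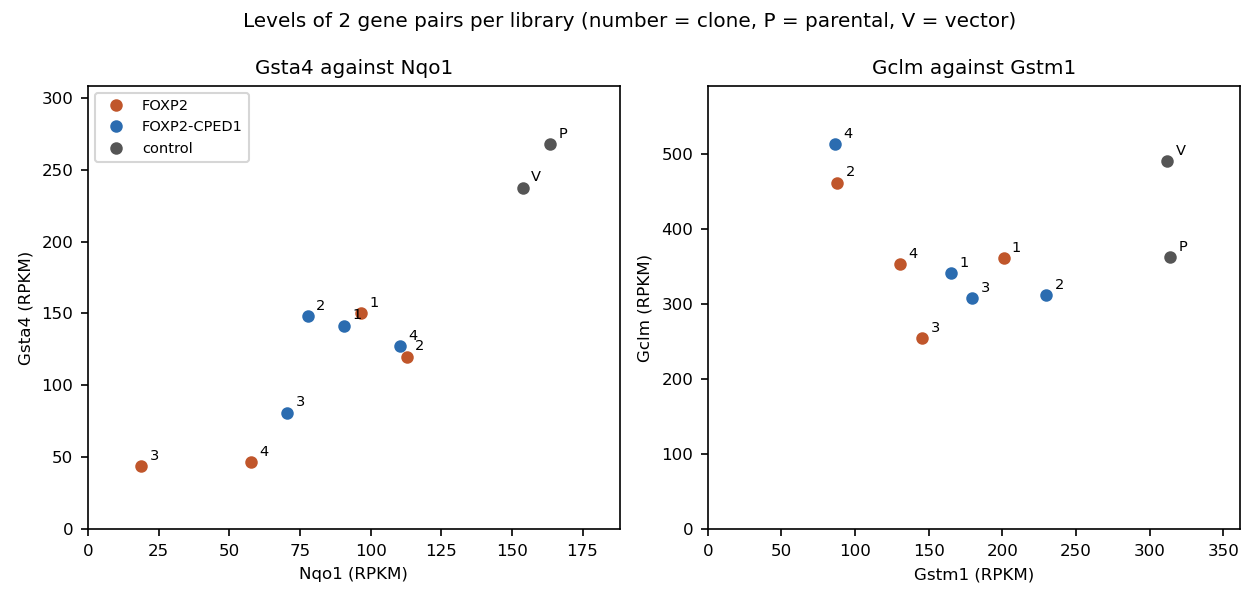
RPKM per library of Gsta4 against Nqo1 (left) and of Gclm against Gstm1 (right), with FOXP2 clones, FOXP2-CPED1 clones and control libraries in separate colours and clone numbers beside the points. FOXP2 clone 3 is lowest on both axes at left (18.9 and 43.8), while at right FOXP2 clone 2 and FOXP2-CPED1 clone 4 pair the lowest Gstm1 with the highest Gclm among the clones.

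Between the constructs, FOXP2-CPED1 clones did not differ detectably from FOXP2 clones. Of the 10 genes, 9 had positive log2 fold changes of FOXP2-CPED1 over FOXP2, with a median of 0.17 against -0.01 over all rows (52.9% of all rows were negative), and 0 of 10 were called, as were 0.0% of all rows. No gene of the 10 had an unadjusted p under 0.05, which 278 of 12842 rows had (2.16%). For no gene did the constructs separate without overlap, as they did for 0.802% of all rows in the lower and 0.576% in the higher direction. The largest differences were 0.63 ± 0.39 for Gsta4, 0.54 ± 0.46 for Nqo1 and 0.26 ± 0.25 for Gclc, each with adjusted p = 0.9998 by limma, while Nfe2l2 had 0.00 ± 0.09. Without FOXP2 clone 3 the median was 0.01, and the values were 0.36 for Gsta4, 0.00 for Nqo1 and 0.04 for Gclc. Leaving out 1 library at a time, Gsta4 ran from 0.36 to 0.94 (0.39 without FOXP2 clone 4), Nqo1 from 0.00 to 0.84 (highest without FOXP2 clone 2) and Gclc from 0.04 to 0.43 (highest without FOXP2 clone 2, and 0.12 without FOXP2-CPED1 clone 2). With library quality weights Gsta4 was -0.21, Nqo1 -0.12 and Gclc 0.01. Leaving out the 3 libraries lacking mitochondrial values gave a median of 0.44.

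Further genes of the pathway were described from 8 lists written by function, with 95 genes tested. Of these, 17 had all 8 clones below both controls (6.38% of all rows), among them Gpx7, which passed the filter on low values through the controls alone, and 1, Sod2, had all 8 above (5.44%). Of 11 NRF2 regulators and partners measured, 0 were called in any comparison (0.436% of all rows with FOXP2, 0.35% with FOXP2-CPED1). Their medians were -0.11 with FOXP2 and -0.27 with FOXP2-CPED1. Keap1, named as the partner of NRF2 and not by its p, was among them with a log2 fold change of 0.06 over all clones. Maff and Mafk, small Maf partners of NRF2, and Btrc, part of a ubiquitin ligase that degrades it, had the smallest p of the list. Maff stood at 8.20, 28.4, 12.5 and 8.58 RPKM in FOXP2 clones 1 to 4, at 12.4 to 14.0 in FOXP2-CPED1 clones, and at 25.6 and 20.8 in parental and vector cells. FOXP2 clone 2 was again the clone apart, above both controls. Mafk averaged 17.8 ± 6.94 RPKM with FOXP2 and 14.0 ± 2.88 with FOXP2-CPED1, against 18.7 ± 0.660 in the control, and Btrc 5.02 ± 0.616, 4.16 ± 0.364 and 5.47 ± 0.147 in the same order.

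In the list of glutathione synthesis, recycling and turnover 15 genes were tested. Gpx7, a peroxidase of the endoplasmic reticulum, was at 0.255, 0.0355, 0 (listed) and 0.0656 RPKM in FOXP2 clones 1 to 4, at 0.170, 0.172, 0.0331 and 0.0299 in FOXP2-CPED1 clones 1 to 4, and at 1.84 and 1.33 in parental and vector cells. It met the filter on low values only through the 2 control libraries, so a difference was built into its being tested and its levels are a description with no test. The other 14 genes were not called (0.436% of all rows were called with FOXP2, 0.35% with FOXP2-CPED1). The medians over the 15 were -0.13 with FOXP2 and -0.11 with FOXP2-CPED1. Abcc1, an exporter of glutathione conjugates, averaged 30.4 ± 2.19 and 30.7 ± 3.35 RPKM with FOXP2 and FOXP2-CPED1 against 39.2 ± 1.84 in the control, below both controls in 8 of 8 clones without being called (adjusted p = 0.477 and 0.584). Abcc4, a related exporter, averaged 7.32 ± 2.23 and 6.55 ± 1.13 RPKM against 10.7 ± 0.196, also below in 8 of 8 and not called.

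Most other glutathione transferases leaned the same way as Gstm1 and Gsta4. Of 12 measured, 11 had negative values with FOXP2 and 10 with FOXP2-CPED1 (47.7% and 49.7% of all rows). Medians were -0.41 and -0.46, and 0 were called (0.436% and 0.35% of all rows). Mgst2 was above both controls in 7 of 8 clones, with log2 fold changes of -0.01 with FOXP2 and 0.43 with FOXP2-CPED1. Gsto1 was above both in 5 of 8, with 0.46 and 0.20. Gsta3 stood at 22.2, 7.15, 0.926 and 2.79 RPKM in FOXP2 clones 1 to 4, at 5.33, 16.9, 2.84 and 6.91 in FOXP2-CPED1 clones 1 to 4, and at 22.1 and 21.1 in parental and vector cells. FOXP2 clone 1 matched the controls while FOXP2 clone 3 was lowest. Mgst3, a membrane-bound transferase, averaged 22.7 ± 1.90 and 20.5 ± 2.08 RPKM with FOXP2 and FOXP2-CPED1 against 29.4 ± 0.0621 in the control, below in 8 of 8 clones (adjusted p = 0.477 and 0.296). Gstk1 averaged 1.92 ± 1.78 and 1.97 ± 1.10 RPKM against 4.56 ± 0.780. These families share sequence, and their rows are uncertain in the same way as that of Gstm1.

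Genes of heme and iron handling also had mostly lower values, in 8 of 9 measured with either construct (medians -0.59 and -0.20). Over all rows, 47.7% were negative with FOXP2 and 49.7% with FOXP2-CPED1. Of the 9, 0 were called (0.436% and 0.35% of all rows). Tfrc was the exception with both constructs, with log2 fold changes of 0.78 and 0.69. It averaged 16.1 ± 6.94 and 16.4 ± 12.1 RPKM against 8.29 ± 0.242, above both controls in 6 of 8 clones. Blvrb, known as a flavin and biliverdin reductase, stood at 172.8, 174.9, 133.8 and 185.4 RPKM in FOXP2 clones 1 to 4, at 178.2, 217.3, 176.4 and 165.3 in FOXP2-CPED1 clones 1 to 4, and at 294.3 and 264.9 in parental and vector cells. All 8 clones were below both controls, and its log2 fold change was -0.75 with FOXP2 (adjusted p = 0.118, limma) and -0.60 with FOXP2-CPED1 (adjusted p = 0.297). Blvra, the reductase known to act on the biliverdin that heme oxygenase makes, averaged 19.5 ± 5.09 and 21.2 ± 1.48 RPKM with FOXP2 and FOXP2-CPED1 against 21.6 ± 0.711 in the control, with log2 fold changes of -0.17 and -0.02. Of the 9 genes, 3 (Slc48a1, Fech and Blvrb) had all 8 clones below both controls, as did 6.38% of all rows. Slc48a1, a heme transporter, averaged 82.9 ± 19.9 and 100.6 ± 14.4 RPKM with FOXP2 and FOXP2-CPED1, against 139.9 ± 1.16 in the control. Alas1, the first enzyme of heme synthesis, averaged 20.9 ± 6.60 and 28.1 ± 4.40 against 31.1 ± 1.20 RPKM.

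In the NADPH list, 0 of 6 genes were called (0.436% of all rows with FOXP2, 0.35% with FOXP2-CPED1). Medians were -0.25 with FOXP2 and -0.23 with FOXP2-CPED1. Negative values were found for 4 of 6 with FOXP2 and 5 of 6 with FOXP2-CPED1 (47.7% and 49.7% of all rows). The pentose phosphate dehydrogenase Pgd averaged 125.5 ± 21.5 and 138.6 ± 11.5 RPKM against 187.3 ± 2.65 in the control, below in 8 of 8 clones (adjusted p = 0.251 and 0.549). Taldo1 averaged 273.2 ± 60.6 and 279.6 ± 34.8 against 347.4 ± 19.8, and G6pdx 66.8 ± 11.9 and 71.5 ± 7.24 against 78.2 ± 4.97. Tkt was above both controls in 6 of 8 clones (83.9 ± 19.9 and 86.2 ± 8.27 against 75.8 ± 2.08 RPKM). Idh1 was above both in 4 of 8 clones and below both in 4. The thioredoxin and peroxide list had medians of -0.01 and -0.09 over 16 genes, again with 0 called (0.436% and 0.35% of all rows). Catalase (Cat) averaged 31.3 ± 6.01 and 36.0 ± 1.51 RPKM against 43.4 ± 1.17, and Prdx4 166.1 ± 12.3 and 125.9 ± 15.7 against 167.5 ± 13.0. Txnip, an inhibitor of thioredoxin, stood at 114.5, 24.5, 123.0 and 132.9 RPKM in FOXP2 clones 1 to 4, at 38.5, 61.2, 61.4 and 42.0 in FOXP2-CPED1 clones 1 to 4, and at 35.4 and 39.4 in parental and vector cells. FOXP2 clone 2 was below both controls, FOXP2-CPED1 clone 1 lay between them and the other 6 clones were above. The log2 fold change of Txnip was 1.12 with FOXP2 (adjusted p = 0.671, limma) and 0.40 with FOXP2-CPED1 (adjusted p = 0.924). Of 14 other NRF2 targets 0 were called (0.436% and 0.35% of all rows), with medians of -0.20 and -0.12. Ephx1, an epoxide hydrolase, averaged 134.6 ± 47.4 and 159.2 ± 35.3 RPKM against 236.1 ± 8.46, and Osgin1 7.49 ± 2.10 and 8.42 ± 2.09 against 13.8 ± 0.464. Aldh3a1, an aldehyde dehydrogenase, averaged 146.4 ± 71.1 and 232.9 ± 80.0 against 304.3 ± 1.43 RPKM. These 3 and Nqo2, 4 of the 14, had all 8 clones below both controls (6.38% of all rows), and 0 of 14 had all 8 above (5.44%). Others lay the opposite way: Cbr1 (10.4 ± 3.13 and 11.7 ± 1.72 against 8.82 ± 0.454 RPKM) and Mt2 (797.5 ± 296.2 and 780.1 ± 118.1 against 604.2 ± 60.0 RPKM) were above both controls in 7 of 8 clones, and Esd in 5 of 8. Aox1 was mixed, above both controls in 5 of 8 clones and below both in 3. Its means were 6.86 ± 3.05 and 6.93 ± 2.90 against 7.56 ± 0.0825 RPKM.

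**Figure D5:**
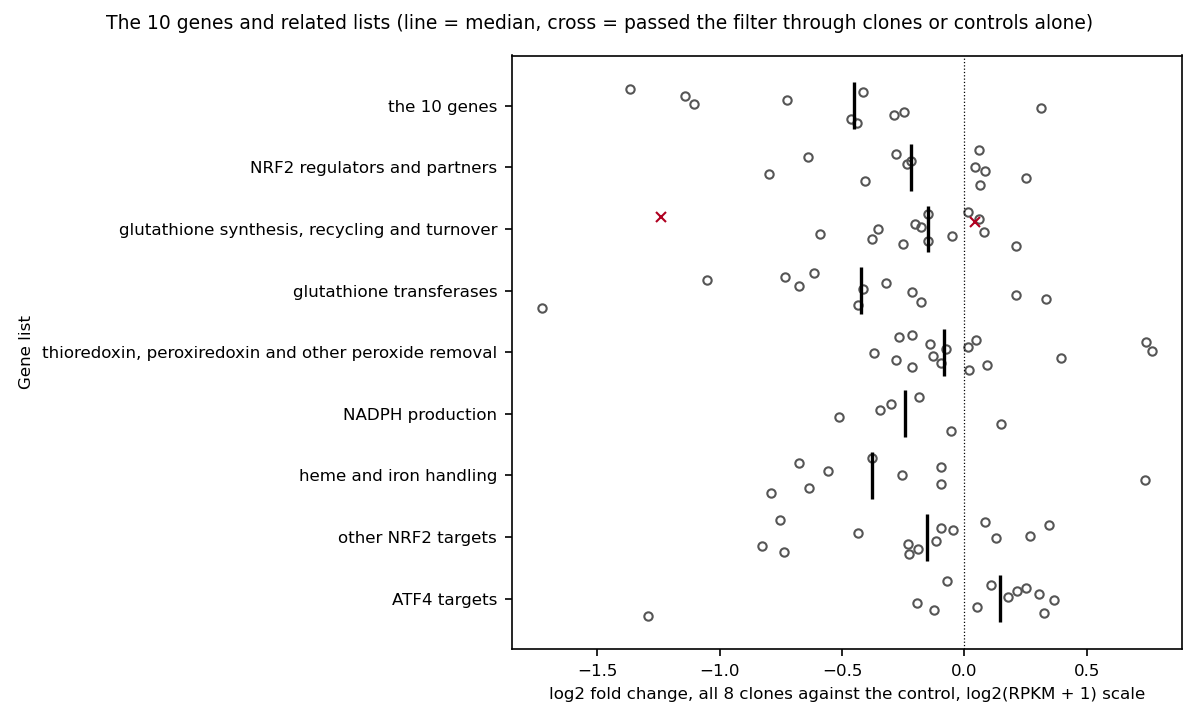
Log2 fold change of all 8 clones against the control (horizontal axis, log2(RPKM + 1) scale) for each tested gene of the 10 genes and of the related lists, with list medians as lines and, as crosses, Gpx7 and Ggt7, which passed the filter on low values through the controls alone and through clones alone. The median is -0.45 for the 10 genes, -0.42 for the other glutathione transferases and 0.14 for the ATF4 list.

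Single genes whose levels ran most like the 10 were named by Pearson's r over the 10 libraries with their mean z-score, among 9842 rows. They were Slc48a1 (0.96), the methionine salvage enzyme Apip (0.95), Ccdc34 (0.95), the intermediate filament gene Vim (0.94) and Osgin1 (0.94). Most opposed were Alg11 (-0.96), a mannosyltransferase of protein glycosylation, Mtx3 (-0.94) and Mterf1b (-0.94). For Hmox1 alone the nearest were Arl6ip5 (0.96), Blvrb (0.95) and Ptms (0.94), and for Gstm1 alone Cish (0.98), an inhibitor of cytokine signalling, the galactosyltransferase B4galt1 (0.96) and the mitochondrial carrier Ucp2 (0.95). Cish stood at 4.73, 1.09, 4.48 and 2.25 RPKM in FOXP2 clones 1 to 4, at 3.38, 6.97, 4.47 and 1.22 in FOXP2-CPED1 clones 1 to 4, and at 9.34 and 9.21 in parental and vector cells, with the same 2 clones lowest as for Gstm1. Such correlations include the gap between clones and controls, and they describe these 10 libraries alone.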

How the data were processed

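The authors deposited a table of RPKM values, which per the file headers has 1 column for each of the 10 libraries. The submitters' processing notes name HISAT2, StringTie and mm9; versions, annotation, strand setting and filters were not found in the sources used here. Of 18430 rows, 3581 name no gene (3.37 to 4.54% of the summed RPKM) and were left out. A row was tested if it reached 1 RPKM in at least 2 libraries (12842 rows). Values were taken as log2(RPKM + 1), which understates changes of low genes, and fitted over all 10 libraries with 3 arms in limma 3.58.1 (R 4.3.3), empirical Bayes with a trend, two-sided, Benjamini-Hochberg adjusted over all rows at 0.05. The steps were tested on simulated data. Beyond independent clones, nothing states how cultures were separated, so p-values cover the variation among these libraries alone.

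The 10 genes, the lists and the tests were chosen with earlier results of these data known. From each list the text names genes past the threshold and the 3 with the smallest p over the arms; the most alike genes follow r. Keap1, Blvra, Fech, Tfrc, Tkt, Idh1, Nqo2, Cbr1, Mt2, Aox1, Esd, Sod2, Ggt7, Mgst2, Gsto1, Col1a2 and Pdgfra were named outside that rule, after their values were seen. So were the genes correlated with Slc7a11. Settings also tried were pseudocounts of 0.1 and 0.25, removing the filter, a mean filter of 5 RPKM, quantile and median ratio scaling, a prior with no trend, library quality weights, only the arms compared, unnamed rows added, clone number as a block, and libraries left out.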

Additional observations from a re-analysis of the deposited data

Results flagged for a closer look

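Gclm, the modifier subunit gene of glutamate-cysteine ligase, stood at 513.4 RPKM in FOXP2-CPED1 clone 4, far from the other 3 FOXP2-CPED1 clones (307.8 to 340.7 RPKM). Among the 20 sets of 4 clones examined, 1 was marked in this way, and chance marks about 1 in 20.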

How the results depend on the processing

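With FOXP2 against control, 56 rows were called; other settings gave 37 (pseudocount 0.1), 2095 (library quality weights, with 5 of the 10 genes), 9 (only the arms compared), 23 (leaving out the 3 libraries lacking mitochondrial values, where Slc7a11 reversed to -0.206), and 2 to 64 with single libraries left out. For FOXP2-CPED1 against control, 45 rows became 28 (pseudocount 0.1), 929 (weights, with 3 of the 10 genes) and 0 to 57 with single libraries left out. Over all clones, 69 became 1842 (weights, with 7 of the 10 genes) and 2 to 82. Between FOXP2-CPED1 and FOXP2, 0 rows became 4 (weights) and 0 to 1. There the median of the 10 genes was 0.436 leaving out those 3 libraries, where Slc7a11 was 0.642 and Gstm1 -0.202. With weights it was -0.0414, Nqo1 -0.121, Gclm -0.117, Gstm1 -0.0881 and Gsta4 -0.211. Slc7a11 was 0.0154 and 0.00334 with pseudocounts of 0.1 and 0.25. With single libraries left out, that contrast ran from -0.0254 to 0.0251 for Nfe2l2, -0.129 to 0.175 for Gclm, -0.00514 to 0.483 for Gstm1, -0.0856 to 0.372 for Txnrd1, -0.00779 to 0.307 for Srxn1 and -0.402 to 0.185 for Slc7a11. The cause of these changes was not tested.

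Clone numbers did not pair the samples: same-numbered clones of the constructs had correlations of -0.04, -0.24, 0.28 and 0.17, and not every clone correlated best with its own number. With clone number as a replicate block, 0 rows and 0 of the 10 genes were called and the median stayed at 0.17. Single control libraries differed for Gclm and Slc7a11, and 2 controls limit every comparison with them. Where a single control remained, it was assumed to vary like the other arms. Absolute depth is unknown, so no counting interval is given, which weighs most on Slc7a11 and Gpx7.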

Other observations

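Rows that join several genes in 1 locus were left out of the lists, because such a value belongs to no one gene alone. Among those that hold a listed gene, Bax/Ftl1 (Ftl1 encodes the ferritin light chain) averaged 5472 ± 1127 RPKM with FOXP2 and 6164 ± 913.6 with FOXP2-CPED1 (SD, n = 4 each), against 8388 ± 887.1 in the control (n = 2). Gstp2/Gstp1, the pi-class glutathione transferases, averaged 695.1 ± 209.6 and 693.9 ± 65.0 RPKM against 992.1 ± 77.8. Trim16/Fbxw10 averaged 11.7 ± 5.02 and 11.7 ± 3.61 against 24.9 ± 1.17, and Pir/Figf 41.7 ± 6.55 and 38.5 ± 8.12 against 52.9 ± 2.33. Of the 13 such rows, 7 had all 8 clones below both controls (these 4, Prdx5/Esrra/Tex40, S100a4/S100a3/Gm42674 and Rhoa/Nicn1/Amt/Gpx1) and 0 had all 8 above, beside 6.38% and 5.44% of all rows tested. Pgls/Fam129c was above both controls in 6 of 8 clones (68.3 ± 7.76 and 68.8 ± 7.60 against 61.6 ± 1.70 RPKM), and Sirt7/Pycr1/Mafg in 5, with the other 3 below. FOXP2 clone 3 was the lowest library for Bax/Ftl1 (3829 RPKM), Gstp2/Gstp1 (466.1) and Trim16/Fbxw10 (5.43). The joined row Gm10639/Gsta1 stood at 25.5 RPKM in FOXP2-CPED1 clone 4, against 12.7 and 12.4 in parental and vector cells, with the other 7 clones at 1.98 to 8.99.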
